A study of Mus musculus with 16 samples.

Results

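Transcript levels in the adult retina of mice that carry a null allele of Gtf2ird1 were compared with those of age-matched wild-type (WT) mice, both at 4 months of age. The comparison held 8 of the 16 arrays of the series, 4 null and 4 WT, chosen by their titles, which give the line as BEN-NULL after an older name of the gene. The other 8 arrays were null and WT retinas at 2 weeks of age. RNA was taken from single retinas and each was labelled and read on a separate Affymetrix Mouse Exon 1.0 array, a chip whose probes lie along the exons of a transcript. As far as the labels say, the allele is carried in the whole animal, so no cell type of the retina is set apart as the site of the loss, and neither strain nor sex is given. Titles and extraction protocol give the age as 4 months, whereas the growth protocol gives 2 months.

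Gtf2ird1 encodes a TFII-I family transcription factor, whose repeat domains bind DNA with a GATTA core, and it lies in the chromosome region that is deleted in people with Williams syndrome. In the mouse retina it is known from photoreceptors, where it takes part in the patterning of the cone opsins together with Crx, the homeobox factor that drives most photoreceptor genes. Rods and cones capture light in an outer segment, a modified cilium that is built on an axoneme and supplied through a transition zone, and pass the signal to bipolar cells through ribbon synapses. The question of the comparison was which transcripts differ in the mature null retina.

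The 8 arrays had similar median log2 signals, of 5.31 to 5.42. Since the submitters name RMA for the processing, these medians say little about array quality, which was not measured separately. Pearson correlations over all rows of the deposited table were 0.9859 to 0.9915 between null arrays, 0.9803 to 0.9884 between WT arrays and 0.9802 to 0.9882 between a null and a WT array. Retinal identity was clear in all 8: the 5 rod markers read 10.8 to 13.7, the 4 Muller glia markers 10.3 to 12.5 and the 4 bipolar markers 9.24 to 10.4 on the log2 scale. Lens transcripts were present to a varying degree, with array means over 6 lens markers of 7.19 to 10.8 in null and 6.74 to 9.88 in WT, whereas the 5 pigment epithelium markers averaged 5.11 to 6.35 in null and 5.61 to 6.23 in WT. WT replicate 4 stood apart by sex-linked transcripts: Xist, the RNA of the inactive X chromosome, read 13.29 there and 4.56 to 4.73 on the other 7 arrays, and the Y-linked Uty read 4.47 there against 9.70 to 10.15. In bulk tissue, fewer cells of a type and less RNA per cell cannot be told apart.

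The targeted transcript was lost from the null retinas at 3 of its 4 probe sets (a probe set being 1 row of the deposited table, a transcript cluster). Probe set 7008402 read 4.66, 4.66, 4.74 and 4.96 in the null arrays and 9.51, 9.48, 9.44 and 9.39 in the WT arrays, a 25.9-fold difference. No null array came near a WT array, and the same held for probe sets 7007348 (25.6-fold) and 7008286 (14.9-fold), each with a two-sided exact permutation p of 0.0286, the smallest that 4 against 4 arrays can give. Probe set 7008782 read 10.24 to 10.42 in null and 10.16 to 10.41 in WT, with overlapping groups (log2 difference 0.03, exact permutation p = 0.657). Being the brightest, it represented the gene in the test over all genes, where Gtf2ird1 was not called. It does not lie in the table among the rows of chromosome 5, which carries the gene. The other 3 probe sets carry numbers close to its own, so this place cannot be taken to set it apart from them. The exons that each probe set covers were not analysed here. The related genes Gtf2i and Gtf2ird2 differed by 0.07 and 0.23 and were not called, nor was any of 24 measured genes of the Williams syndrome region (median log2 difference -0.01).

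Few of the genes tested differed between the genotypes. A gene was called when its adjusted p was under 0.05 by limma with Benjamini-Hochberg adjustment over the 20259 genes tested. By this rule 83 genes, or 0.41%, were called, of which 46 (0.227%) were higher and 37 (0.183%) lower in null. At an unadjusted p under 0.05 there were 1087. In every one of the 83 called genes the ranges of the 4 null and the 4 WT arrays were separate, which was also true of 959 of all genes (4.73%): null was above in 513 (2.53%) and below in 446 (2.2%). Differences of 2-fold or more were seen for 31 called genes, 16 higher and 15 lower. The median called gene differed by 1.83-fold and the smallest call was 1.30-fold, while the median over all genes was a log2 difference of -0.00421. Names were known for 44 of the rises and 29 of the falls, and the other 10 have predicted names. With 0.41% of all genes called, most short gene lists would hold no call. A list below with 0 or 1 call therefore says little about its genes as a group. The lists were also chosen with earlier results of these data known. Leaving out each of the 8 arrays in turn, or WT replicate 1 of 2 weeks, left 43 of the 83 calls standing in all 9 fits, and 0 changed sign. The number of calls dropped to 50 when null replicate 3 was left out and to 54 when null replicate 4 was. It was 126 without WT replicate 1 of the 2-week group, an array that enters through the pooled estimate of the spread. The median log2 signal of that array was 5.55, above the 5.31 to 5.42 of the 8 arrays of 4 months. Without WT replicate 4, the array with Xist signal, 76 genes were called, 65 of them among the 83. When the 4-month arrays were fitted alone, 86 genes were called, 62 of them among the 83. With a covariate for sex, built from Xist and Y-linked transcripts, 83 genes were called, 71 of them among the 83 of the main fit. Calls lost with this covariate included those of Racgap1, Mprip, Lyrm7, H2bc8, Wdr63, Ivd, Lrrc8b, C1ql3, Sh2d2a and Myo9b.

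**Figure D1:**
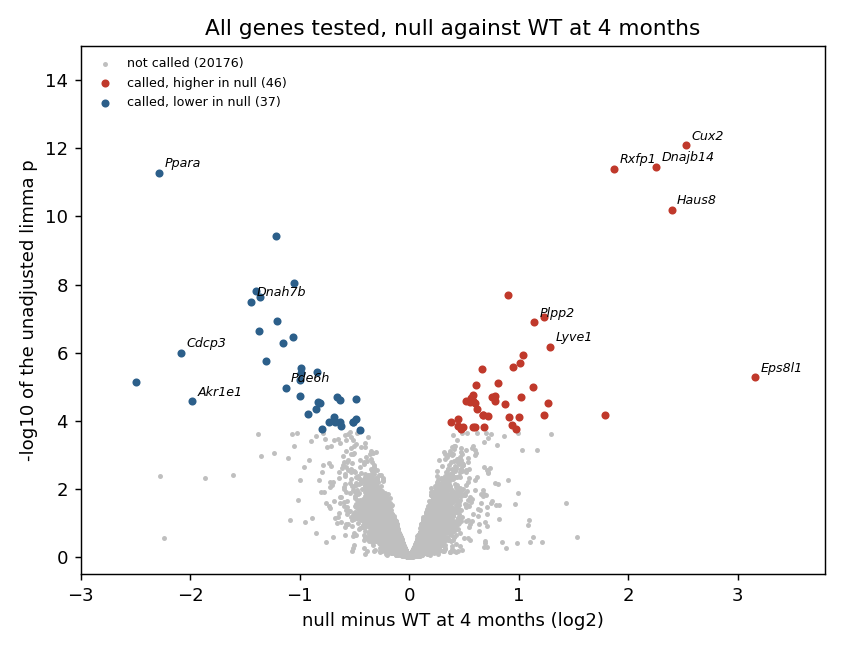
Each point is 1 of the 20259 genes tested, with the log2 difference of null minus WT at 4 months on the x axis and -log10 of the unadjusted limma p on the y axis. Coloured points are the 83 called genes, 46 higher and 37 lower in null; Cux2, Dnajb14, Haus8 and Rxfp1 stand out on the right and Ppara on the left.

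The largest rises were in genes of unrelated roles. Cux2, a homeobox transcription factor known from neurons of the upper cortical layers, read 9.46, 9.43, 9.30 and 9.36 in null and 6.84, 6.75, 7.15 and 6.72 in WT. The lowest null array lay 2.15 log2 units above the highest WT array, and the rise was 5.75-fold (log2 difference 2.52 ± 0.126, SE; limma adjusted p = 1.67e-08). The other 2 Cux2 probe sets were dimmer and differed by 0.15 and 0.16 with exact permutation p of 0.486 and 0.0571, so the rise was seen at 1 of 3 probe sets. Cux1, its closest relative, differed by 0.01, and no other of the 7 homeobox genes measured with it was called.

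Haus8, a subunit of the augmin complex that nucleates microtubules from microtubules, read 8.79, 8.67, 8.79 and 8.60 in null and 6.27, 6.39, 6.19 and 6.43 in WT. The groups were far apart and the rise was 5.26-fold (limma adjusted p = 2.58e-07), and a second Haus8 probe set rose 12.3-fold, from 5.35 ± 0.339 to 8.97 ± 0.301 (SD, n = 4; exact permutation p = 0.0286). Haus8 was the 1 called gene among 17 of augmin and the mitotic spindle, whose median was 0.01. Dnajb14, a J-domain partner of Hsp70 at the endoplasmic reticulum membrane, read 10.06, 9.90, 10.17 and 10.12 in null and 7.92, 8.02, 7.56 and 7.76 in WT. Each null array exceeded each WT array, and the rise was 4.76-fold (2.25 ± 0.124, SE; limma adjusted p = 2.65e-08). It stood alone among 24 genes of endoplasmic reticulum J proteins and the unfolded protein response, which had a median of -0.01; the chaperone gene Hspa5 differed by -0.12.

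Rxfp1, the receptor of the peptide hormone relaxin, read 6.74, 6.74, 6.62 and 6.66 in null and 4.86, 4.72, 4.88 and 4.83 in WT, a 3.65-fold rise (limma adjusted p = 2.65e-08). The spread within each genotype was small, with SDs of 0.0620 and 0.0739. Eps8l1, an actin regulator related to Eps8, showed the largest difference of all called genes and also the largest standard error among them. It read 7.61, 7.01, 7.58 and 8.92 in null and 4.23, 4.18, 4.18 and 5.92 in WT. Replicate 4 was the highest of both groups, and the groups did not overlap (log2 difference 3.16 ± 0.474, SE; limma adjusted p = 0.00382). The other 3 measured members of the Eps8 family, Eps8, Eps8l2 and Eps8l3, differed by -0.14, -0.02 and 0.03.

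**Figure D2:**
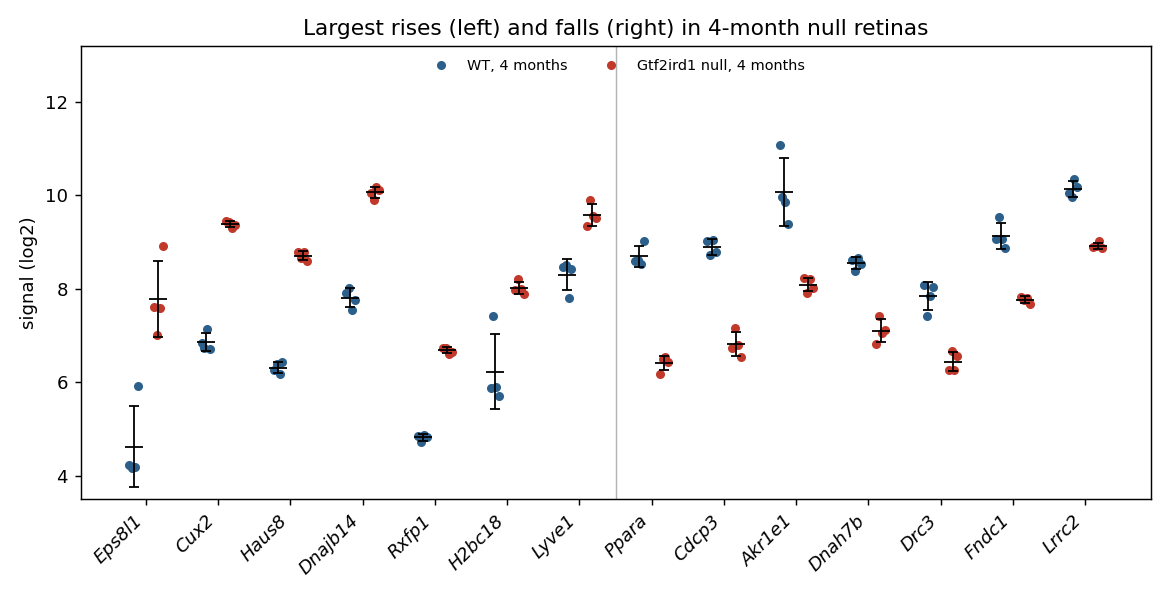
Log2 signal of each array (points; red null, blue WT, both at 4 months) for 7 of the largest rises, on the left, and 7 of the largest falls, on the right; the bars give the group mean and SD (n = 4). For each gene the red and blue points are separate; Eps8l1 is widely spread in both groups, and Rxfp1 is tight in both.

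The further rises of 2-fold or more had varied roles. Plpp2, a lipid phosphate phosphatase, read 12.26, 12.35, 12.16 and 12.12 in null and 11.31, 10.92, 11.19 and 10.91 in WT (2.20-fold, limma adjusted p = 0.000183). Mier2, a transcriptional regulator that lies next to Plpp2 on chromosome 10 with 0 protein-coding genes between them, rose 2.02-fold, from 7.93 ± 0.162 to 8.95 ± 0.184 (SD, n = 4). Tex15, known from meiosis in male germ cells, rose 2.34-fold, Ip6k3, an inositol hexakisphosphate kinase, rose 2.19-fold, and Dpp10, an auxiliary subunit of Kv4 potassium channels, rose 2.03-fold. When the 4-month arrays were fitted alone, the call of Dpp10 was lost. The olfactory receptor genes Olfr686 and Olfr684, separated by 1 gene on chromosome 7, rose by log2 differences of 1.03 and 0.58. Both were dim: Olfr686 averaged 4.84 in WT and 5.88 in null, and Olfr684 4.59 and 5.17, where the array medians were 5.31 to 5.42. Whether probes are shared between them was not tested.

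Histone and transporter genes in this range were less secure. H2bc18, a histone H2B gene, read 7.89 to 8.21 in null and 5.88, 7.42, 5.91 and 5.71 in WT, with WT replicate 2 far above the other WT arrays (log2 difference 1.79, limma adjusted p = 0.0232). Its call was lost without any 1 of the 4 null arrays or without WT replicate 1, 3 or 4, at differences of 1.62 to 1.84. It was also lost when the 4-month arrays were fitted alone. H2bc8 rose by 0.94, with its call lost without null replicate 1, 2 or 3 or WT replicate 1, 3 or 4 (0.81 to 1.00). Its probe set lies in the table away from those of its own chromosome. Its other 2 probe sets differed by 0.48 and -0.12 (exact permutation p = 0.0571 and 0.257), and with the mean over the 3 the difference was 0.44 and not called. Another gene of this family, H2bc21, differed by -1.36 with non-overlapping groups and was not called (adjusted p = 0.138). Near-identical histone genes may share probes, so these values are uncertain for single members. Of 9 replication-dependent histone genes 2 were called (22.2%), both higher, with a list median of -0.08. Over all genes 0.41% were called and 0.227% called higher. This list too was chosen with earlier results of these data known. Slc22a30, an organic anion transporter, rose 2.41-fold, from 7.24 ± 0.396 to 8.51 ± 0.238 (SD, n = 4). Its call was lost without null replicate 3 or 4 (1.23 and 1.21), and its probe set too lies away from those of its own chromosome.

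The deepest fall among genes of known name was in Ppara, the nuclear receptor that senses fatty acids and drives their oxidation. It read 6.19, 6.51, 6.53 and 6.44 in null and 8.60, 8.62, 8.53 and 9.03 in WT, 4.86-fold lower (log2 difference -2.28 ± 0.129, SE; limma adjusted p = 2.65e-08). All 4 Ppara probe sets were lower in null, by -2.28, -2.33, -0.65 and -1.20, each with non-overlapping groups (exact permutation p = 0.0286). Of 23 measured genes in a list of PPAR receptors and fatty acid oxidation, Ppara itself was the 1 called and the median was -0.00. The known Ppara targets Cpt1a, Pdk4, Angptl4 and Acadm differed by 0.03, 0.03, 0.07 and -0.02.

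Cdcp3 read 6.74, 7.16, 6.81 and 6.55 in null and 9.03, 8.72, 9.04 and 8.78 in WT (4.23-fold lower, limma adjusted p = 0.00107). Akr1e1, an aldo-keto reductase, read 8.23, 7.92, 8.20 and 8.02 in null and 11.09, 9.97, 9.86 and 9.38 in WT (3.95-fold lower, limma adjusted p = 0.0116), and most of its spread was WT replicate 1. Lrrc2, a leucine-rich repeat protein, was tighter, at 8.89, 8.91, 9.02 and 8.87 against 10.06, 9.96, 10.36 and 10.17 (2.32-fold lower, limma adjusted p = 1.28e-06). In all of these genes the groups were well apart. Fndc1, a fibronectin type III domain protein, fell 2.59-fold, and its second probe set was lower as well (-0.84, exact permutation p = 0.0286). Erap1, the aminopeptidase that trims peptides for class I antigen presentation, fell 2.09-fold, from 7.08 ± 0.145 to 6.02 ± 0.140 (SD, n = 4). Psmb7, a catalytic subunit of the proteasome, fell 2.00-fold at its brighter probe set, while the dimmer one differed by 0.14 (exact permutation p = 0.257), and the call was lost when the probe sets were averaged (-0.43).

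The start regions of 4 of these genes, from 250 bases before to 50 bases after the transcription start (RefSeq, build GRCm38.p6), are shown because the null allele removes a factor that binds a GATTA core. The letters searched were GGATTA on either strand, which on the other strand read TAATCC, also the core that Crx binds. Capitals mark a match, and each sequence runs 5′ to 3′ on the gene's strand.
Nxnl2 (chr13:51170775-51171074, plus strand): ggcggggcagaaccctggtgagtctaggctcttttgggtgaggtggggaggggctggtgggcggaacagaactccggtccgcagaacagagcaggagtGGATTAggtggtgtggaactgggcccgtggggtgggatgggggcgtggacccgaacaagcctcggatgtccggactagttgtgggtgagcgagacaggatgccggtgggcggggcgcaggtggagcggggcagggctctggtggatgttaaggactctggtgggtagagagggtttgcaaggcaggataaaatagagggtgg
Pde6h (chr6:136954273-136954572, plus strand): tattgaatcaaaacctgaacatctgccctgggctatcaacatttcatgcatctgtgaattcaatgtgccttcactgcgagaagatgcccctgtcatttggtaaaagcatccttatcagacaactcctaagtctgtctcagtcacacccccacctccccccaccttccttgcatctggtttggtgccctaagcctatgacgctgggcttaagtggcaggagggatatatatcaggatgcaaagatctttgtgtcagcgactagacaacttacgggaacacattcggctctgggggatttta
Ppara (chr15:85735526-85735825, plus strand): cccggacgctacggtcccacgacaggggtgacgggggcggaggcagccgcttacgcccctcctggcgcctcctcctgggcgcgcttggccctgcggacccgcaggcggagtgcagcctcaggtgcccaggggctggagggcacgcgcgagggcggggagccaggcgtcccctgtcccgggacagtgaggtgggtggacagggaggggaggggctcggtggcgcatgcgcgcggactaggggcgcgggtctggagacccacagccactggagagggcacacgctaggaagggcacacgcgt
Cux2 (chr5:122049802-122050101, minus strand): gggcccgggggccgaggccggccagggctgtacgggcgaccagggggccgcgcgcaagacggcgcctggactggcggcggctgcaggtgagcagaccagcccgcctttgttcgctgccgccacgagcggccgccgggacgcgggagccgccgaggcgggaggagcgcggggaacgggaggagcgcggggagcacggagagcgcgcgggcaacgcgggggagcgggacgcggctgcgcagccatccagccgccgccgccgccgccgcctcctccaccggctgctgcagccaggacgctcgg
Nxnl2, a thioredoxin-like protein of photoreceptors, held 1 match, at position -152 from the start, and the windows shown for Pde6h, Ppara and Cux2 held none. RefSeq gives Cux2 a second start region, which is not shown and held none either. Nor did the window of Dnajb14, which is also not shown. Of 15650 tested genes with such a window, 1159 (7.41%) held a match in at least 1 of their windows. Of the 67 called genes with a window, 9 held one (13.4%): 4 of 36 that were higher (11.1%) and 5 of 31 that were lower (16.1%). The 9 were Nxnl2, Pla2r1, Mrps21, Cr1l, Spred3, Wdr63, Zan and 2 genes with predicted names. These shares are a description of letters in short windows and carry no test.

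Few photoreceptor genes were called: 1 of 21 in the cone list (4.76%), 1 of 18 of outer segment structure (5.56%) and 0 of 21 in the rod list. The share over all genes was 0.41%, and 1 call in so short a list says little. Pde6h, the inhibitory gamma subunit of the cone phosphodiesterase, read 6.28, 6.40, 6.26 and 6.15 in null and 7.47, 7.82, 6.77 and 7.54 in WT. WT replicate 3 lay closest to the null arrays and still above them, and the fall was 2.19-fold (log2 difference -1.13 ± 0.180, SE; limma adjusted p = 0.00629). Pde6h was the 1 called gene of 21 measured genes of cone phototransduction and identity, whose median was 0.03. The blue cone opsin Opn1sw read 13.02, 13.09, 12.87 and 12.80 in null and 12.98, 12.76, 12.87 and 12.82 in WT, with overlapping groups. The green cone opsin Opn1mw read 12.02, 12.21, 12.003 and 12.19 in null and 12.39, 12.35, 12.33 and 12.30 in WT, without overlap but with a difference of -0.24 that did not pass (limma adjusted p = 0.380). Neither the catalytic subunit of the cone phosphodiesterase Pde6c (-0.20) nor cone arrestin Arr3 (-0.08), cone transducin Gnat2 (0.07) or the channel subunit Cnga3 (0.03) was called. Kcne2, a potassium channel subunit, lay lower in all null arrays, at 6.17 to 6.47 against 6.61 to 7.17, and missed the threshold (-0.52, limma adjusted p = 0.193).

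No gene of rod phototransduction was called among 21 measured (0.41% of all genes were called). Their differences stayed between -0.12 and 0.20 with a median of -0.06. Rod transducin Gnat1 read 12.36 to 12.61 in null and 12.53 to 12.65 in WT. Of 20 photoreceptor transcription factors none was called, with a median of -0.03: Crx differed by -0.03, Nrl by -0.08 and the thyroid hormone receptor Thrb by -0.15. Pias3, a SUMO ligase and coregulator in photoreceptors, lay higher in all null arrays (0.41, limma adjusted p = 0.177), and Rxrg, the retinoid receptor that partners Thrb, differed by -0.42 (limma adjusted p = 0.663). With a covariate for sex, Rxrg was called, at -0.56. The ribbon synapse (18 genes, median -0.03) and the visual cycle (13 genes, median -0.08) had no called member.

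Besides Pde6h, Nxnl2 and Rp1 fell among genes known from photoreceptors. Nxnl2 read 8.58 to 9.25 in null and 9.78 to 10.13 in WT (1.99-fold lower, limma adjusted p = 0.00244). Rp1, a microtubule-binding protein of the outer segment axoneme, read 9.66, 9.91, 9.57 and 9.80 in null and 10.27, 10.26, 10.36 and 10.56 in WT (1.55-fold lower, limma adjusted p = 0.0114). The groups did not overlap in either gene, and the call of Rp1 was lost without null replicate 3, at -0.57, and after median centring, at -0.63. Rp1 was the 1 called gene of 18 measured genes of outer segment structure, whose median was -0.01. Mgarp, a mitochondrial protein, read 10.23 to 10.34 in null and 11.02 to 11.24 in WT (1.79-fold lower, limma adjusted p = 0.00281).

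**Figure D3:**
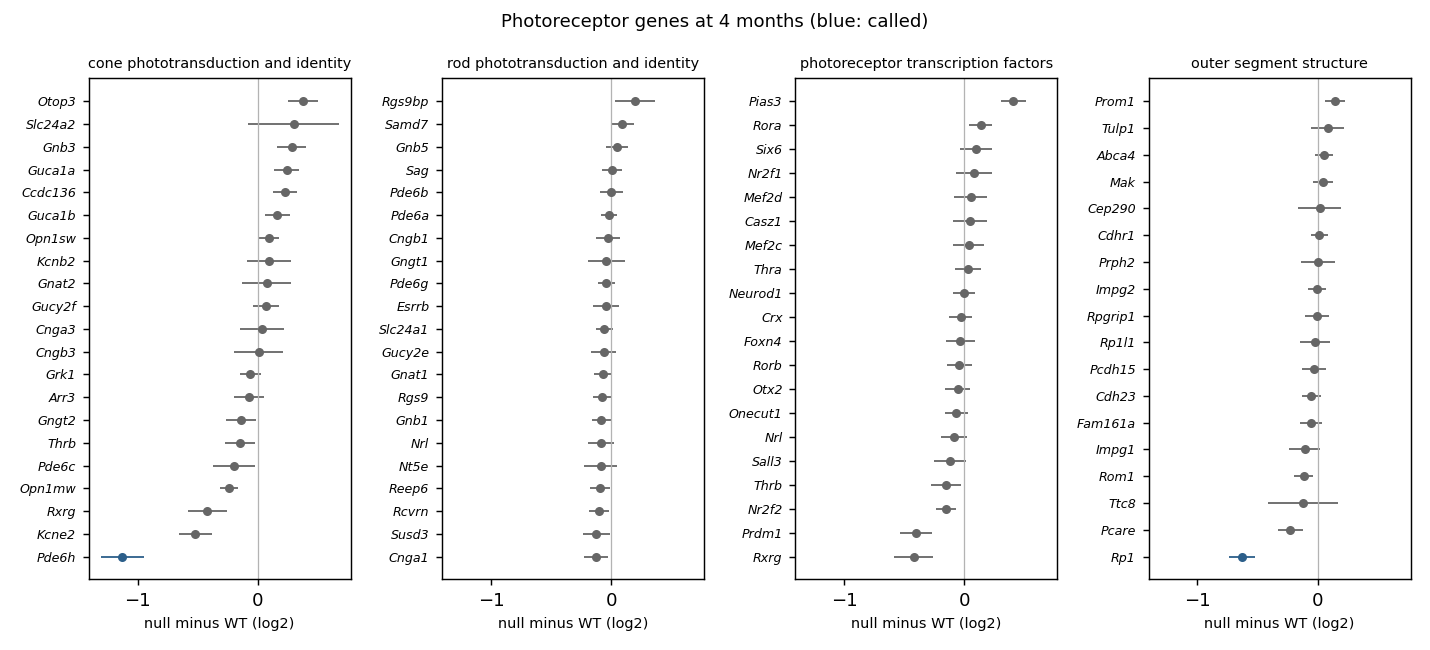
Log2 difference of null minus WT at 4 months (x axis, with the limma SE as a bar) for every measured gene of 4 lists: cone, rod, photoreceptor transcription factors and outer segment structure. Called genes are blue; Pde6h among cone genes and Rp1 among outer segment genes are the 2 called, and the rod genes lie between -0.12 and 0.20.

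Of the genes of motile cilia, 3 fell. Dnah7b, a heavy chain of axonemal dynein, read 6.81, 7.41, 7.06 and 7.13 in null and 8.63, 8.38, 8.66 and 8.53 in WT (2.72-fold lower, limma adjusted p = 5.84e-05). Drc3, a subunit of the dynein regulatory complex, read 6.27, 6.67, 6.27 and 6.57 in null and 8.08, 7.43, 7.85 and 8.03 in WT (2.64-fold lower, limma adjusted p = 4.02e-05). Dnah9, another axonemal heavy chain, fell 2.30-fold, and its second probe set was lower too (-0.93, exact permutation p = 0.0286). The null arrays lay below all WT arrays in each of them. These were 3 of 20 measured genes in a list of axonemal dyneins and their regulators, or 15%, with 0 higher and a list median of 0.00. Over all genes 0.41% were called and 0.183% called lower. The list was chosen with earlier results of these data known, so its share is no independent support for a change of the group. Wdr63, an axonemal dynein intermediate chain that was not in the list, was higher in null (0.49, limma adjusted p = 0.0396), and its call was lost without null replicate 1, 2 or 4 or any 1 WT array of 4 months (0.42 to 0.53).

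Bbs7, a subunit of the BBSome that carries membrane proteins through the cilium, read 10.74, 10.89, 10.78 and 10.63 in null and 11.93, 11.59, 11.47 and 11.47 in WT (1.81-fold lower, limma adjusted p = 0.0170). The groups did not overlap. The call was lost without null replicate 1, 3 or 4 or WT replicate 1, at -0.86 to -0.75, and after median centring of the arrays, at -0.85. It was the 1 called gene of 20 of the BBSome and transition zone (median 0.00), and Bbs12, a chaperonin-like factor of BBSome assembly, differed by -0.44 without a call. None of 21 genes of intraflagellar transport was called, with a median of 0.05. Cntrl, a centriolar protein, was lower by -0.45, a call that was lost without any 1 of the 8 arrays (-0.48 to -0.39). Dzank1, needed in zebrafish for trafficking to the photoreceptor outer segment, was higher by 0.91, with its call lost without null replicate 2, 3 or 4 or WT replicate 2 or 3 (0.80 to 0.94).

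DNA repair and cell division contributed single genes. Ercc5, the endonuclease that cuts 3′ of a lesion in nucleotide excision repair, read 7.06, 7.06, 6.93 and 7.27 in null and 8.31, 8.39, 8.02 and 8.23 in WT (2.23-fold lower, limma adjusted p = 0.000625). Its second probe set differed less, by -0.22 (exact permutation p = 0.0286). Ercc5 was the 1 called gene of 24 in the pathway (median -0.03), and Ercc1 and Ercc2 differed by -0.24 and -0.29. Zgrf1, a helicase of homologous recombination, fell 2.07-fold, from 7.40 ± 0.162 to 6.35 ± 0.123 (SD, n = 4; limma adjusted p = 2.61e-05). Pttg1, the securin that holds back chromatid separation, fell 1.99-fold, and its call was lost when the 4-month arrays were fitted alone. In the other direction, Ncapg2, a condensin II subunit, rose 1.43-fold (a call lost after median centring, at 0.52), and Racgap1, a regulator of cytokinesis, was 2.00-fold higher. The call of Racgap1 was lost without null replicate 1, 2 or 3 or WT replicate 1, 2 or 4 (0.91 to 1.04). The mitotic kinase Plk1 differed by 0.53 without a call.

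Among the other falls were single genes of mitochondria and of glycolysis. Mrpl55 and Mrps21, proteins of the large and small mitochondrial ribosomal subunits, were 1.75-fold and 1.74-fold lower, and Lyrm7, an assembly factor of respiratory complex III, was 1.60-fold lower. Their calls were fragile: Mrpl55 was lost without null replicate 3 or 4 (-0.78 and -0.75), Mrps21 without null replicate 1, 3 or 4 or WT replicate 1, 2 or 4 (-0.79 to -0.71), and Lyrm7 without any 1 null array or WT replicate 1, 2 or 4 (-0.72 to -0.59). Pfkfb3, which makes the activator of glycolytic phosphofructokinase, read 6.51, 6.61, 6.58 and 6.47 in null and 7.13, 6.87, 7.11 and 7.01 in WT (1.40-fold lower, limma adjusted p = 0.0268). The groups did not overlap, and the call was lost without any 1 null array or WT replicate 1, 3 or 4 (-0.51 to -0.45).

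Among 19 measured genes of glycolysis and lactate transport none was called, 15 lay below 0 and the median was -0.07. The array means of this list were 10.54 to 10.61 in null and 10.64 to 10.74 in WT. The lactate exporter Slc16a3 read 7.11, 7.25, 7.21 and 7.15 in null and 7.87, 7.86, 7.62 and 7.48 in WT, just short of a call (-0.53, limma adjusted p = 0.0583). It was called without WT replicate 4 (-0.61) and without WT replicate 1 of 2 weeks. The phosphofructokinase gene Pfkl lay at 10.21 to 10.42 in null and 10.45 to 10.74 in WT (-0.36, limma adjusted p = 0.343). Srebf2, the regulator of cholesterol synthesis genes, read 8.78 to 9.11 in null and 9.58 to 10.21 in WT and also came near a call (-0.85, limma adjusted p = 0.0565), which it passed without WT replicate 1 of 2 weeks. Srebf2 was also called in 5 of 9 other settings, the 4-month arrays fitted alone among them. It was not called with the mean over its 5 probe sets. The probe sets that represent Srebf2 and Abca1 lie in the table away from those of their own chromosomes. None of 16 genes of cholesterol synthesis and sterol transport was called, and the sterol exporter Abca1 (-0.44, limma adjusted p = 0.0947) was called without WT replicate 2 (-0.54).

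Few markers of glia, immune cells and vessels were called: 1 of 17 in the microglia and complement list (5.88%) and 1 of 18 interferon-inducible genes (5.56%). The share over all genes was 0.41%, and 1 call in so short a list says little. Lyve1, a hyaluronan receptor of lymphatic endothelium and of some macrophages, read 9.35, 9.91, 9.56 and 9.52 in null and 8.47, 8.50, 7.80 and 8.42 in WT (2.43-fold higher, limma adjusted p = 0.000756). It was the 1 called gene of 17 measured genes of microglia and complement, whose median was 0.07, and the macrophage gene Mrc1 differed by 0.03. Array means of the 5 microglia markers, which do not include Lyve1, were 5.97 to 6.11 in null and 5.76 to 5.84 in WT; their part in the rise of Lyve1 was not tested. The complement gene C1qb read 7.002, 6.57, 6.82 and 6.67 in null and 6.11, 6.09, 6.51 and 6.41 in WT (0.49, limma adjusted p = 0.270), and the microglial receptor P2ry12 differed by 0.43 (limma adjusted p = 0.597). Gbp7, an interferon-inducible guanylate-binding protein, was 1.78-fold lower, the 1 call among 18 interferon-inducible genes, and the call was lost without null replicate 1 or 3 (-0.80 and -0.78).

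Of 20 Muller glia genes none was called (median -0.00), and none of 17 genes of reactive gliosis (median 0.05). Serpina3n, an acute-phase protease inhibitor of reactive glia, read 9.99, 6.77, 8.85 and 7.05 in null and 7.26, 6.94, 6.57 and 6.17 in WT. Null replicates 1 and 3 were high and the other null arrays lay within the WT range, and the difference of 1.43 did not pass (limma adjusted p = 0.745). The intermediate filament gene Gfap read 5.18 to 5.45 in null and 4.98 to 5.19 in WT (0.23, limma adjusted p = 0.975). Endothelium and pericytes (19 genes, median 0.05), pigment epithelium and melanin (18 genes, median 0.02) and lens (17 genes, median 0.37) had no called member. The lens list differed more between arrays of one genotype than between the genotypes, with array means of 7.27 to 10.4 in null and 7.26 to 9.61 in WT.

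Of 22 measured matrix genes 2 were called (9.09%, against 0.41% of all genes), Postn higher and Fndc1 lower, and the list median was -0.08. Postn, the matricellular protein periostin, read 6.95, 7.20, 7.04 and 6.97 in null and 5.64, 5.94, 5.75 and 5.91 in WT (2.34-fold higher, limma adjusted p = 0.0232). The groups were well apart at this age, but the call was lost without any 1 null array or WT replicate 1 or 3 (1.17 to 1.26). Outside that list, Mmp17, a membrane-anchored metalloproteinase, rose 1.93-fold (limma adjusted p = 0.00233). Mylk, a myosin light chain kinase, was 1.89-fold lower, and Mprip, a binding partner of myosin phosphatase, was 1.61-fold lower. The call of Mylk was lost without null replicate 1, 3 or 4 or WT replicate 1 or 3 (-0.95 to -0.79), and that of Mprip without null replicate 3 or 4 or WT replicate 1 or 4 (-0.66 to -0.60). The other probe sets of Mylk and of Mprip differed by 0.00 and by 0.08 and 0.12. Pla2r1, a phospholipase A2 receptor, fell 1.40-fold, and its call was lost without null replicate 4 (-0.46).

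The remaining rises included a water channel and several signalling proteins. Aqp1, the water channel, read 10.89, 10.95, 10.67 and 10.74 in null and 10.43, 10.28, 10.12 and 10.18 in WT (1.48-fold, limma adjusted p = 0.0105). Its groups did not overlap, and it was the 1 called gene of 11 aquaporins (median 0.02). Its call was lost after median centring of the arrays, at 0.57. Aqp4, the main aquaporin of Muller glia, differed by 0.16. Array means of 4 markers of ciliary body and iris, Aqp1 among them, were 6.86 to 7.12 in null and 6.83 to 7.02 in WT. The markers besides Aqp1 lay slightly lower in null: Otx1 by -0.03, Msx1 by -0.20 and Zic1 by -0.04, without a call. Igfn1 rose 1.87-fold with little spread, from 5.80 ± 0.0275 to 6.70 ± 0.0695 (SD, n = 4; limma adjusted p = 4.58e-05). Strn, a scaffold of protein phosphatase 2A, rose 1.76-fold at a probe set that lies away from those of its own chromosome. The other Strn probe set, on its own chromosome, was higher by 0.80 (exact permutation p = 0.0286).

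Zan, a sperm membrane protein (0.61), and Zscan29, a zinc finger protein (0.55), rose with calls that held without any 1 array. Ano6, a calcium-activated scramblase, rose by 0.78 at its brighter probe set, while the other differed by 0.18, and the call was lost with their mean (0.48). Plppr4, a phospholipid phosphatase-related protein of synapses, rose by 0.87, a call lost without null replicate 2 (0.84) or WT replicate 1 (0.80). Cops5, a subunit of the COP9 signalosome, rose by 0.78 and lost its call without null replicate 4 (0.76). Eid2b, an inhibitor of differentiation, rose by 0.58 and lost its call without null replicate 3 (0.55), as did Fam114a2 among the falls (-0.66, and -0.60 without that array).

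A further set of called genes rested on several arrays at once, and each of them lost its call without any 1 of 4 or more of the 8 arrays. Higher in null were Uap1, which makes UDP-N-acetylglucosamine (0.98; 0.75 to 1.01 where the call was lost), the Hsp110 chaperone Hsph1 (0.72; 0.61 to 0.72), the leucine-catabolic dehydrogenase Ivd (0.69; 0.63 to 0.73) and Spred3, an inhibitor of Ras signalling (0.68; 0.60 to 0.68). The mitochondrial nuclease Exog (0.67; 0.61 to 0.69), the Ral exchange factor Rgl2 (0.62; 0.53 to 0.61), the magnesium transporter Slc41a3 (0.60; 0.56 to 0.59) and the sperm protein Spata6 (0.60; 0.51 to 0.65) also belonged to it. So did the anion channel subunit Lrrc8b (0.58; 0.51 to 0.63), the synaptic protein C1ql3 (0.48; 0.42 to 0.52), the adaptor Sh2d2a (0.45; 0.40 to 0.49), the transcytosis protein Mal2 (0.45; 0.42 to 0.44) and the myosin Myo9b (0.38; 0.33 to 0.40). Lower in null was the complement regulator Cr1l (-0.63, and -0.68 to -0.60 where the call was lost). Its probe set lies away from those of its own chromosome, and its other 2 probe sets differed by -0.02 and -0.03.

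Inner retinal neurons showed no called gene in any list, which says little where 0.41% of all genes were called. The 15 bipolar genes had a median of -0.02, the 17 amacrine genes -0.01, the 16 ganglion cell genes -0.04 and the 10 horizontal cell genes -0.08. Among horizontal cell genes 9 of 10 lay below 0, and Lhx1, a homeobox factor that places these cells, read 5.19, 5.15, 5.10 and 5.43 in null and 5.68, 5.56, 5.55 and 5.48 in WT (-0.35, limma adjusted p = 0.162). The 14 genes of thyroid hormone signalling had a median of -0.09 with 12 below 0, and array means of 7.09 to 7.19 in null and 7.23 to 7.32 in WT, with no member called. The 17 circadian clock genes (median 0.07) and 17 immediate early genes (median -0.01) had no called member. Across 39 lists, 15 held a called gene and 35 had a median under 0.1 in size; 19 of the 83 called genes were in a list and 64 were in none.

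The difference at 4 months was then set beside that of the 2-week retinas, which are other animals and share only the estimate of spread. Sex-linked transcripts were uneven between the genotypes at 2 weeks too. Xist averaged 4.71 ± 0.0631 in null and 8.81 ± 4.81 in WT, and Uty 9.90 ± 0.157 and 7.11 ± 3.11 (SD, n = 4). The 2-week differences and the test of the change between ages include this imbalance. At 2 weeks 214 genes (1.06%) were called, and 37 of the 83 genes called at 4 months were among them. Of the 83, 74 had the same sign at 2 weeks, and in 63 of these the difference was larger at 4 months; since the genes were chosen by their test at 4 months, that choice itself favours the larger value there. A test of the change in the genotype difference between the ages called 2 genes (0.00987%), with 1199 at an unadjusted p under 0.05. Dnajb14 was higher in null by 0.93 at 2 weeks and by 2.25 at 4 months, a change of 1.33 (limma adjusted p = 0.0107). Fabp7, a lipid-binding protein found in glia, was higher by 1.75 at 2 weeks and by 0.21, without a call, at 4 months, a change of -1.54 (limma adjusted p = 0.0107). This test called 0 genes after median centring or with a replicate block, and 20 without WT replicate 1 of 2 weeks.

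Genes called at 4 months and not at 2 weeks numbered 46, and 20 of them differed by less than 0.2 in size at 2 weeks. Postn differed by -0.00 at 2 weeks and 1.23 at 4 months, and Mgarp by -0.04 and -0.84. Dpp10 differed by -0.19 and 1.02, Ip6k3 by -0.21 and 1.13, and Drc3 by -0.27 and -1.40. For none of these did the test of the change itself pass, with limma adjusted p of 0.105 to 0.423. In the opposite direction, Pla2r1 (-0.997 at 2 weeks, -0.48 at 4 months), Ercc5 (-1.72, -1.16), Pde6h (-1.54, -1.13) and Akr1e1 (-2.49, -1.98) had the smaller difference at 4 months, and here too the change was not called.

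**Figure D4:**
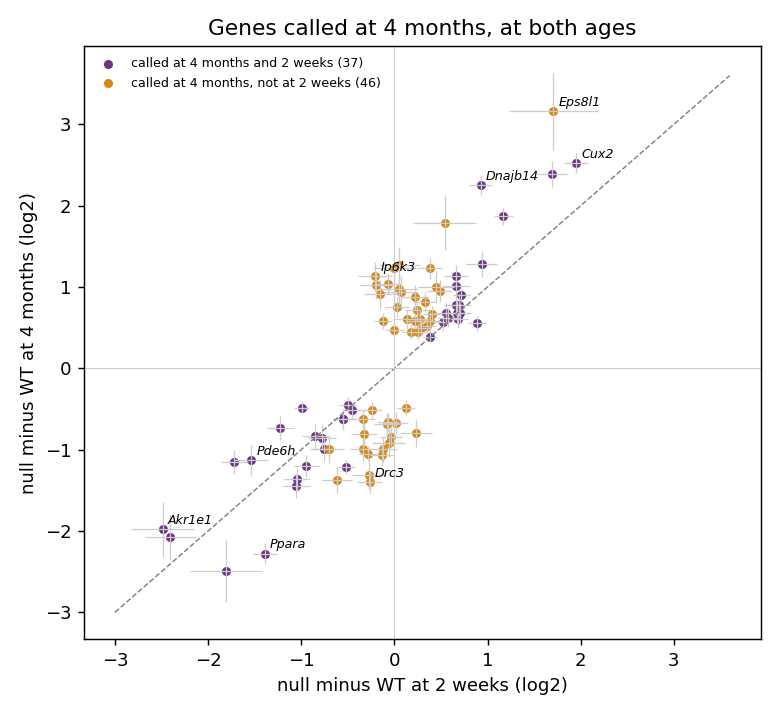
Log2 difference of null minus WT at 2 weeks (x axis) against 4 months (y axis) for the 83 genes called at 4 months, with limma SEs as bars, coloured by whether they were also called at 2 weeks (37) or not (46); the dashed line marks equal differences. Most points lie in the upper right and lower left, and Ip6k3 is among those near 0 on the x axis.

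The share of genes called was then counted by chromosome, without a test. Of 19164 genes whose probe set lies in the table among those of its own chromosome, 77 were called (0.402%). Chromosome 3 held 13 of them among 952 tested genes (1.37%), 7 higher and 6 lower, Dnajb14 and Bbs7 among them. Chromosome 15 followed with 0.778% and chromosome 1 with 0.702%, whereas chromosomes 14, 18 and 19 held 0. All 8 called genes of chromosome 11 were lower and all 5 of chromosome 5, which carries Gtf2ird1, were higher. In 3 places called genes lay within 2 protein-coding genes of each other, and each pair moved the same way: Plpp2 with Mier2, Haus8 with Myo9b (2.39 and 0.38, with 0 genes between) and Olfr684 with Olfr686. Olfr684 and Olfr686 were dim, as given above.

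**Figure D5:**
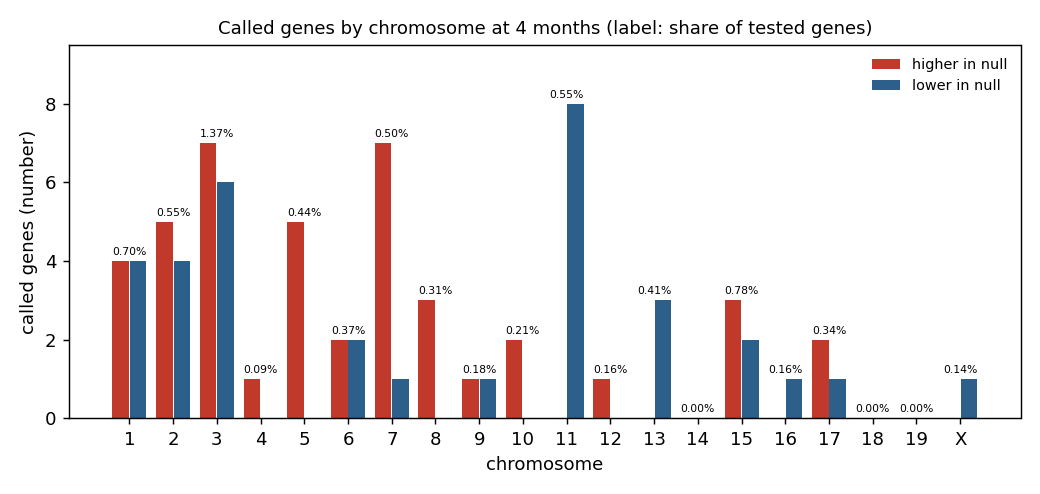
Number of called genes at 4 months on each chromosome (y axis), higher in null in red and lower in null in blue, over the 77 called genes whose probe set lies among those of its own chromosome; the label above the bars is the share of tested genes that was called. Chromosome 3 has the highest share, 1.37%, and the 8 called genes of chromosome 11 are all lower.

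Some genes came close to a call with groups that did not overlap. Wfdc10 read 6.79 to 7.21 in null and 7.85 to 8.84 in WT (-1.38, limma adjusted p = 0.0517), and Dclre1b, a nuclease that guards telomeres, read 6.31 to 7.02 in null and 7.48 to 7.60 in WT (-1.03, limma adjusted p = 0.0511). Both passed without WT replicate 1 of 2 weeks, Wfdc10 also without WT replicate 2 (-1.54) and Dclre1b without null replicate 2 (-1.20). Each was also called in 5 of 9 other settings, the 4-month arrays fitted alone among them. Srm, the spermidine synthase gene, was at 8.13 to 8.76 in null and 6.99 to 7.74 in WT (0.99, limma adjusted p = 0.0511). Sox30, a transcription factor of male germ cells, differed by 1.16 (limma adjusted p = 0.111) and was called without WT replicate 2 (1.42). Polr3f, a subunit of RNA polymerase III, differed by 1.03, Ttc39b by 0.90 and Lrrc75a by 0.81, each higher in all null arrays. St6galnac2, a sialyltransferase, differed by -1.24 and the ribosomal protein gene Rpl26, whose probe set lies away from those of its own chromosome, by -0.99, without a call. H2bc21, Polr3f and Ttc39b were also called without WT replicate 1 of 2 weeks and with the 4-month arrays fitted alone.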

How the data were processed

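For each transcript cluster the authors deposited 1 signal per array, here read as log2 values from their range, since no source used here states the base; the tools that the submitters' processing notes name are Partek and RMA, with the genome build mm8. The table held 115830 rows, of which 25539 carried 1 gene symbol, 2300 several and 87991 none. Of the 20259 genes, 3109 had several rows and were represented by the brightest (mean of the 16 arrays); no filter on signal was set.

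All 16 arrays were fitted in 1 model of 4 group means (12 residual degrees of freedom) in R 4.3.3 by limma 3.58.1 (default lmFit and eBayes), with Benjamini-Hochberg adjustment of the p-values over all genes. The p-values measure the spread between replicates that the labels call biological. For single probe sets a two-sided exact permutation test over the 8 arrays was used. The procedure was tested on simulated data.

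The arrays compared and the 39 gene lists (695 genes, 590 measured) were chosen with earlier results of these data known, and lists are described without a test. Named genes were, among called genes of known name, the 15 that rose most and the 15 that fell most, the other called genes of known name, called members and up to 4 others of each list, 13 core photoreceptor genes (Nr2e3 had no row with 1 gene and is not analysed here), the interaction genes, and the 5 largest uncalled rises and falls without overlap; Mrc1, Aqp4, Hspa5, Cux1, the Eps8 family and the named Ppara targets were added as relatives or markers. Null and WT arrays of the same replicate number were not treated as pairs, since the titles state no pairing. Their residual correlations were 0.0953, -0.108, -0.281 and 0.00683, which cannot settle whether they were paired. Alternatives were other scalings, row choices, model settings, thresholds and leaving out single arrays. Gene order and promoter sequences came from RefSeq, GRCm38.p6.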

Additional observations from a re-analysis of the deposited data

Results flagged for a closer look

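Among groups of 4 arrays, 14 of 238 gene and group combinations held 1 array far from the other 3 by Dixon's test, where chance gives about 1 in 20. In WT replicate 4, Xist was high at 13.29 (others 4.67 to 4.73) and the Y-linked genes were low, with Uty at 4.468, Kdm5d at 5.052 and Eif2s3y at 4.667 (others from 8.86 to 10.68). The same array was high for Eps8l1 (5.917, others 4.18 to 4.23), Mrpl55 (8.824, others 8.28 to 8.36), Plk1 (5.945, others 5.51 to 5.53) and Pde6c (10.53, others 10.41 to 10.42). Other WT arrays that stood apart were replicate 3 for Lyve1 (7.804, others 8.42 to 8.50) and replicate 2 for H2bc18 (7.425, others 5.71 to 5.91). Among null arrays, replicate 4 stood apart for Gbp7 (5.615, others 5.13 to 5.18), Pde6c (10.48, others 10.14 to 10.19) and Rpl26 (8.152, others 8.78 to 8.87), and replicate 2 for Dclre1b (7.02, others 6.31 to 6.35).

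The genotype difference itself differed between the ages for Dnajb14 (4 months minus 2 weeks, 1.33) and Fabp7 (-1.54), each with a limma adjusted p of 0.0107.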

How the results depend on the processing

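The 83 calls numbered 53 after median centring, 230 over all rows of the table, 200 with array weights, 129 at an adjusted p under 0.1, and 50 to 126 without 1 array. They numbered 68 to 89 under the other settings, except 67 with a fold of at least 1.5. A replicate block gave 68, 67 of them shared, and the 4-month arrays fitted alone gave 86, 62 of them shared. A restriction to 77 calls on the gene's own chromosome was chosen after the data were seen. The share of higher calls, 55.4%, was 43.5% to 58% without 1 array (under 50% without null replicate 2, 47.7%, WT replicate 2, 47.1%, or WT replicate 3, 43.5%), 49.5% with array weights, 49.4% for genes at or above the median signal and 50.6% to 57.4% under the other settings. The interaction gave 2 calls, and 0 after median centring, 20 over all rows, 38 with array weights, 3 with a sex covariate, 0 with the replicate block and 2 to 20 without 1 array. Over 18 alternatives, 1162 of 1472 values of called genes kept their call, 310 lost it and 0 changed sign. Of 702 list medians 667 stayed within 1 SD and 35 moved. Sign changes concerned uncalled genes: Cnga3 (-0.0162 with array weights, -0.0128 with a sex covariate, -0.0851 to 0.154 without 1 array), Crx (-0.0768 to 0.00163 without 1 array), Uty (-0.162 with a sex covariate, -0.162 to 1.73 without 1 array), Kdm5d (-0.103 with a sex covariate, -0.119 to 1.18 without 1 array), and Gtf2ird1 (-0.00339 with array weights, -0.00762 to 0.0780 without 1 array, and -3.31 with the mean over its probe sets, since the other 3 are lower). The number of arrays limits the precision, and no detection calls were used for dim genes.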
